A study of Mus musculus with 6 samples.

Results

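Chemokines are small secreted or membrane-held proteins that steer leukocytes along a concentration gradient, and they act through G protein-coupled receptors on the migrating cell. CC and CXC members differ in the spacing of their first cysteines. Inflammatory ligands such as Ccl2 and Ccl5 are induced in injured or stressed tissue, while homeostatic ligands such as Cxcl12, Ccl19 and Ccl21a place lymphocytes and progenitors in resting tissue. In the fat of obese mice the Ccl2 and Ccr2 pair is best known for drawing in monocytes, which become adipose tissue macrophages. The set described here holds every protein-coding gene of the deposited table with a Ccl, Cxcl, Ccr or Cxcr symbol followed by a number, plus Cx3cl1, Cx3cr1 and Xcr1. This rule found 54 of 48897 genes, of which 36 encode chemokines and 18 encode receptors. Cxcl11 was left out because the table lists it as a transcribed pseudogene.

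The messenger RNA was sequenced from epididymal white fat, the visceral depot beside the epididymis, of wild-type C57BL/6 mice aged 35 weeks. From 6 weeks of age the mice ate a diet with 10% (low-fat) or 60% (high-fat) of its calories from fat. F-L is read as low-fat feeding throughout and F-H as high-fat feeding throughout. F-H-L is read as 9 weeks of high-fat diet followed by 10 cycles, each of 1 low-fat week and then 1 high-fat week. Only the letters of these codes link them to the diets in the labels, which do not state whether the 2 libraries of a group came from separate mice. The p-values therefore reflect how far libraries of a group differ, and that difference may be technical.

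Total counts ran from 41091012 to 49230161 per library, and a count of 0 allows up to 0.0537 to 0.0754 CPM (3 counts). CPM is the count scaled to library size, here with TMM factors, the edgeR scaling that equalizes most genes. Levels below are adjusted RPKM, that is, TMM-adjusted CPM per kilobase of gene. Differences are log2 fold changes with SE from 1 edgeR quasi-likelihood model of the counts of all 6 libraries. The F-L libraries stood apart from each other, with r = 0.815 across genes, against 0.948 for F-H and 0.970 for F-H-L. Against the fat label, the 12 adipocyte markers summed to 1550 CPM in F-L replicate 1 and to between 13536 and 30411 CPM in the other 5 libraries. The 10 epididymis epithelium markers summed to 14145 CPM in F-L replicate 1, and the 8 testis germ cell markers to 4231 CPM in F-L replicate 2, against at most 2908 and 454 CPM in any other library. In F-H the epididymis list was at 3.17 and 468 CPM and the testis list at 3.28 and 7.24; in F-H-L they were at 1520 and 1436, and at 86.1 and 111. How these transcripts bear on the chemokine values was not tested. In whole tissue, fewer cells of a type and less RNA per cell cannot be told apart.

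Chemokine and receptor transcripts made up more of the messenger RNA in F-H than in F-L, with other genes in the lead, but the groups overlapped when set against the adipocyte markers. The 36 chemokine genes summed to 116 and 296 adjusted RPKM in the F-L libraries, to 2082 and 939 in F-H and to 620 and 647 in F-H-L. The 18 receptor genes summed to 10.8 and 17.8 in F-L, to 206 and 71.5 in F-H, and to 49.4 and 31.8 in F-H-L. Both sums were thus highest in F-H and intermediate in F-H-L, with no overlap between groups. Per 1000 CPM of adipocyte markers, the chemokine sum was 74.9 and 20.5 in F-L, 154 with 48.2 in F-H, and 23.9 with 21.3 in F-H-L. On that scale F-L replicate 1 lay between the F-H libraries and above both of F-H-L. Ccl6, a CC chemokine of mouse myeloid cells, made up 35.9% and 40.6% of the chemokine sum in F-H. Ccl8 led in F-L replicate 1, with 25.7%. Ccl21a, the lymphatic ligand of Ccr7, supplied 36.4% in F-H-L replicate 2 but 0.307% in F-H replicate 1. Among receptors, Ccr2 led in F-L (24.8% and 29.7%) as well as F-H-L (37.6% and 35.4%), and supplied 13.4% and 18.3% in F-H.

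**Figure D1:**
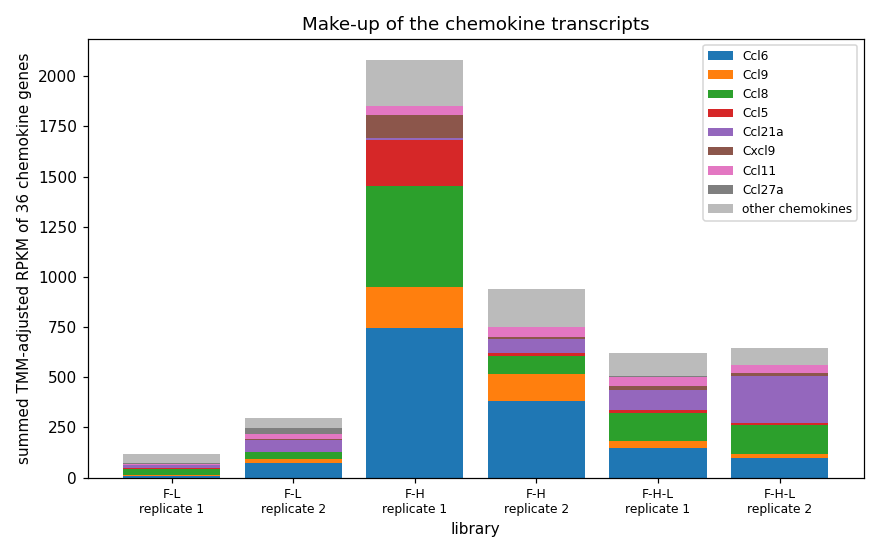
Summed level of the 36 chemokine genes in each of the 6 libraries, in adjusted RPKM, with 8 abundant genes as coloured segments and the rest in grey. The F-H bars are the tallest, at 2082 and 939, an order that did not hold per CPM of adipocyte markers, and Ccl6 is their largest segment.

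Of the 54 genes, 44 had enough counts to be tested (28 chemokines and 16 receptors). Ccl20 and Ccl26 had no count in any library, and Ccl1, Ccl21b, Ccl27b, Ccr8, Cxcl15, Cxcl17, Cxcl3 and Cxcr1 were too low. Between F-H and F-L, 1 of the 44 passed the edgeR quasi-likelihood test at a Benjamini-Hochberg adjusted p under 0.05, where 0.866% of all 22289 genes tested did. That gene was Ccl3, which was higher in F-H; over all genes 0.615% were called higher and 0.251% lower. DESeq2, fitted to every gene with a count, called 25 of 52 members (23 higher, 2 lower), or 48.1%, against 14.3% of all genes. Its default filter can leave low-count genes without an adjusted p. Such genes stay in these totals, here and below, so the DESeq2 shares are not shares of genes tested. After scaling to adipocyte markers edgeR called 4 of 44 (1 higher, 3 lower), or 9.09%, which was below the 19.4% of all genes. With median-ratio size factors, the 2 groups alone or a replicate block, edgeR called 0 members and 0 genes. A fit without 1 library leaves its group with 1 library, so only effect sizes are given for such fits. The median of the members tested was 1.99 without F-L replicate 1, against -0.12 over all genes. Without F-L replicate 2 it was 3.42, against 0.036, and without F-H replicate 1 it was 1.70, against -0.25. Among the 44, 36 had a positive fold change, against 46.1% of all genes, and their median was 2.48 against -0.12 over all genes. After scaling to adipocyte markers, 25 were positive and the median was 0.60 against -2.60. Both F-H libraries lay above both F-L libraries for 30 of the 44, against 27.0% of all genes, and below them for 3, Ccl17, Ccl25 and Ccl27a, against 28.8%. At an unadjusted p under 0.05 there were 24 members higher and 2 lower, where 12.5% and 16.7% of all genes were. Members with very few counts cannot enter these counts unless some library raises them, so the counts describe the 44 and not the whole set.

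**Figure D2:**
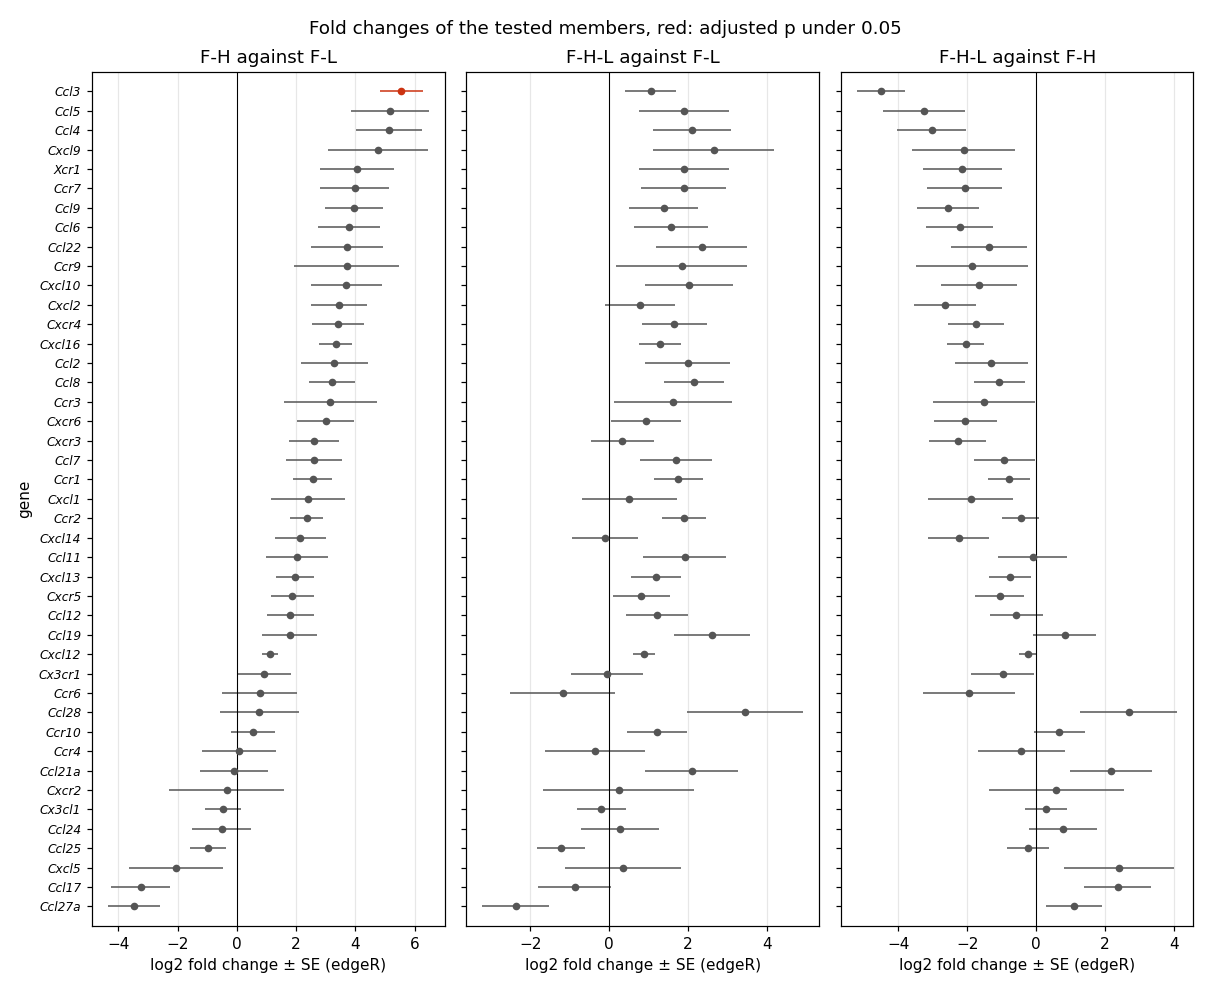
Log2 fold change with SE (bars) of 43 tested genes in the 3 comparisons, 1 panel each, ordered by F-H against F-L, with an adjusted p under 0.05 in red. In F-H against F-L 35 points lie above 0, and in F-H-L against F-H 33 lie below it; after scaling to adipocyte markers the F-H-L against F-L median changes sign.

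Ccl3 encodes macrophage inflammatory protein 1 alpha, a ligand of Ccr1 made by activated macrophages. It was at 0.171 and 0.204 adjusted RPKM in F-L, at 10.6 and 7.45 in F-H, and at 0.404 and 0.382 in F-H-L, from 6, 9, 379, 243, 14 and 12 counts. Both F-H libraries stood far above the other 4, and the F-H-L libraries lay nearer to F-L than to F-H. The rise in F-H over F-L was 5.56 ± 0.74 on the log2 scale, or 47.1-fold (edgeR adjusted p = 0.0486). The call was not kept in all fits: the adjusted p was 0.191 with the F-H and F-L libraries fitted alone, 0.113 with replicate number as a block, 0.157 after scaling to adipocyte markers and 0.0588 with median-ratio size factors. The call was kept with DESeq2 (1.4e-12), without a low-count filter (1.3e-04), and with limma on log2(RPKM + 1) and log2(RPKM + 0.1) (0.0411 and 0.0271). With a library left out its group holds 1 library, so only the log2 fold change is given. It was 5.44 and 5.78 without F-L replicate 1 and 2. Without F-H replicate 1 and 2 it was 5.34 and 5.85, and without either F-H-L library 5.62. The log2 fold change stayed between 2.97 and 5.85 in every alternative, the smallest on the log2(RPKM + 1) scale. Between F-H-L and F-H the difference was -4.51 ± 0.70 (edgeR adjusted p = 0.233), and between F-H-L and F-L it was 1.05 ± 0.64 (edgeR adjusted p = 0.390). Ccl3 lies at chr11:83647843-83649378 (mm10) on the minus strand, and its deposited span overlaps that of Ccl4 on the plus strand by 755 bases. The strand setting of the counting is not given, so reads of the shared stretch cannot be told apart.

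Promoter sequences are shown for the called gene and for the Cxcr3 ligands Cxcl9 and Cxcl10, neighbours on chromosome 5 that varied widely between the F-H libraries; this choice was made after the values had been seen. They are from RefSeq (GRCm38.p6, the assembly of mm10), each with 250 bases before and 50 bases from the transcript start. The coordinates are chr11:83649329-83649628 for Ccl3, chr5:92328030-92328329 for Cxcl9 and chr5:92348840-92349139 for Cxcl10, all on the minus strand and written 5′ to 3′. Capitals mark matches, on either strand, to 3 strings: GGG, any 5 bases and CC (NF-kappaB type), TTC, any 3 bases and GAA (GAS type), or GAAA, any 2 bases and GAAA (ISRE type).
Ccl3: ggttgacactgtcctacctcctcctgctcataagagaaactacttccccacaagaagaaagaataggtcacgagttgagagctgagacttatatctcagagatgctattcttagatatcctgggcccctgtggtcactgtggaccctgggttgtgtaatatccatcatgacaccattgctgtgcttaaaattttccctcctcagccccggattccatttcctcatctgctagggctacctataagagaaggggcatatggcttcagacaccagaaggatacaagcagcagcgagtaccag
Cxcl9: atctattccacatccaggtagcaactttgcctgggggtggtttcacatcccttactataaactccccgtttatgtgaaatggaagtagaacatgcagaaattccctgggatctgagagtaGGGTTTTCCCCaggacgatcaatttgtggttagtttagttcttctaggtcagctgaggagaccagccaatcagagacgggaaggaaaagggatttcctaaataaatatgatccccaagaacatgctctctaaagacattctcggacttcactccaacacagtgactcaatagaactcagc
Cxcl10: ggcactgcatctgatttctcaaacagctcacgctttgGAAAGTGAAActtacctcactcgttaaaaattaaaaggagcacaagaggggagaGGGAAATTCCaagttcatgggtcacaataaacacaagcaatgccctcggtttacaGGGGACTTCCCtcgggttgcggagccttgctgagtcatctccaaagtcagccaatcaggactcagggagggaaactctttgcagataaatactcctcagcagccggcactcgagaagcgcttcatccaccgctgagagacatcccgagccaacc
Counted from 1 at the 5′ end, Cxcl9 held a pair of overlapping NF-kappaB type matches that begin at 121 and 122. Cxcl10 held an ISRE type match at 38 and NF-kappaB type matches at 92, 147 and 148, the last 2 overlapping. The Ccl3 window held none of the 3 strings. Of all 32851 RefSeq promoters of this length, 50.8% held the NF-kappaB type string, 8.30% the GAS type and 3.44% the ISRE type. The table held 47 promoters of 40 members, and of these 47 the numbers were 27, 3 (Ccl17, Ccr6, Cxcl14) and 3 (Ccl19, Cxcl10, Cxcl14). A match is a string of letters and not a measured site.

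A block of inflammatory CC ligands surrounds Ccl3 on chromosome 11, in the order Ccl5, Ccl9, Ccl6, Ccl3 and Ccl4 (chr11:83525778-83664683). Their fold changes in F-H over F-L ran from 3.79 to 5.56 with a median of 5.15, the highest median of the ligand groups. Ccl4, macrophage inflammatory protein 1 beta, was at 0.102 and 0.324 adjusted RPKM in F-L, at 12.1 and 3.40 in F-H, and at 1.16 and 0.712 in F-H-L. The groups did not overlap, and F-H differed from F-L by 5.15 ± 1.11 (edgeR adjusted p = 0.0761), or by 4.04 without F-H replicate 1 and 6.29 when F-L replicate 2 was left out. Ccl5, made by T cells and other leukocytes, was at 4.19 and 2.76 in F-L, at 234 and 15.2 in F-H, and at 12.7 and 13.3 in F-H-L. Its F-H libraries differed 15.4-fold from each other, and F-H replicate 2 was close to F-H-L. The Ccl5 difference between F-H and F-L was 5.16 ± 1.31 (edgeR adjusted p = 0.0891), and it was 2.17 without F-H replicate 1.

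Ccl6 and Ccl9, ligands of Ccr1 in the mouse, were the most abundant of this group. Ccl6 was at 9.41 and 72.2 adjusted RPKM in F-L, at 748 and 381 in F-H, and at 146 and 96.0 in F-H-L. Ccl9 was at 2.76 and 18.9 in F-L, at 203 and 132 in F-H, and at 35.2 and 21.5 in F-H-L. For both genes every F-H library exceeded all others and F-L replicate 1 was the lowest library. The differences between F-H and F-L were 3.79 ± 1.04 for Ccl6 (edgeR adjusted p = 0.0957) and 3.95 ± 0.97 for Ccl9 (edgeR adjusted p = 0.0858). Without F-L replicate 1 they were 2.96 and 3.14, and with F-L replicate 2 left out 6.00 and 6.02. Ccl5 and Ccl6 each lie within the span of a lncRNA on the opposite strand, which carries the same limit as for Ccl3.

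The monocyte chemoattractant genes lie on chromosome 11 as well, at chr11:82035577-82179812, with the eotaxin gene Ccl11 among them. Ccl2, the main ligand of Ccr2, was at 0.727 and 7.64 adjusted RPKM in F-L, at 29.6 and 52.7 in F-H, and at 22.5 and 11 in F-H-L. Both F-H libraries were above both F-H-L libraries, which were above both F-L libraries, and F-H differed from F-L by 3.30 ± 1.14 (edgeR adjusted p = 0.133). Ccl7, a further ligand of Ccr2, was at 1.21 and 6.17 in F-L, at 16.9 and 28.3 in F-H, and at 16.8 and 7.13 in F-H-L. The lower F-H library of Ccl7 thus lay only just above the higher F-H-L library (16.86 against 16.75), and F-H differed from F-L by 2.61 ± 0.94 (edgeR adjusted p = 0.142). Ccl8 was at 29.8 and 34.1 in F-L, at 500 and 92.9 in F-H, and at 141 and 142 in F-H-L. Its F-H libraries lay on either side of F-H-L, and F-H differed from F-L by 3.21 ± 0.79 (edgeR adjusted p = 0.0864). Ccl12 ranged from 1.44 to 10.8 over the 6 libraries. Ccl11, which attracts eosinophils through Ccr3, was at 1.68 and 21.6 in F-L, at 43.0 and 51.9 in F-H, and at 48.6 and 39.8 in F-H-L. F-H and F-H-L overlapped for Ccl11, and F-L replicate 1 was far below the rest; F-H differed from F-L by 2.02 ± 1.06 (edgeR adjusted p = 0.267). These differences depended on single libraries: with F-L replicate 1 left out they were 2.42 for Ccl2, 1.86 for Ccl7 and 1.12 for Ccl11, with F-L replicate 2 left out they were 5.90, 4.30 and 4.90, and Ccl8 was at 1.60 without F-H replicate 1.

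Cxcr3 ligands draw activated T cells and are known for their induction by interferon gamma. Cxcl9 was at 0.318 and 4.30 adjusted RPKM in F-L, at 116 and 8.77 in F-H, and at 18.3 and 10.8 in F-H-L. One F-H library was the highest of all and the other was below both F-H-L libraries, so the groups overlapped; F-H differed from F-L by 4.76 ± 1.69 (edgeR adjusted p = 0.139), or by 2.00 without F-H replicate 1 and 7.71 with F-L replicate 2 left out. Cxcl10 was at 1.06 and 1.48 in F-L, at 29.2 and 3.78 in F-H, and at 8.14 and 2.26 in F-H-L. The same F-H library was highest for Cxcl10, whose span lies inside that of Art3 on the opposite strand. Cxcl16, a membrane-anchored ligand of Cxcr6 that also takes up oxidized lipoprotein, was at 4.08 and 4.08 in F-L, at 61.8 and 20.8 in F-H, and at 10.8 and 9.23 in F-H-L. The 3 groups did not overlap, and the difference between F-H and F-L was 3.34 ± 0.56 (edgeR adjusted p = 0.0610), or 2.40 without F-H replicate 1. The Cxcl16 span shares 363 bases with Zmynd15, which had 3505 counts in F-L replicate 2. Cx3cl1, the membrane-anchored ligand of Cx3cr1, was at 8.64 and 2.76 in F-L, at 3.83 and 4.35 in F-H, and at 6.00 and 3.97 in F-H-L. Its 3 groups overlapped, with a difference between F-H and F-L of -0.48 ± 0.61 (edgeR adjusted p = 0.653).

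Neutrophil-attracting ligands of Cxcr2 were low. Cxcl2 was at 0.104 and 0.330 adjusted RPKM in F-L, at 2.46 and 2.33 in F-H, and at 0.527 and 0.232 in F-H-L, which put both F-H libraries above the other 4. Cxcl1 ran from 0.142 to 5.78, with its highest value in F-H replicate 2, and Cxcl5 from 0 to 0.400. The receptor gene Cxcr2 itself had at most 15 counts in a library. The 9 neutrophil markers summed to 729 and 379 CPM in F-L, to 39.2 and 26.4 in F-H and to 86.8 and 40.3 in F-H-L. Ltf, a neutrophil granule gene, was called lower in F-H against F-L by edgeR. That call was not kept with median-ratio size factors, where 0 genes were called. A few genes led these sums: of the 8 markers tested, 4 were positive in F-H over F-L (median 0.27) and 6 in F-H-L over F-L (median 1.74). Ly6g had no count in F-L replicate 2 and F-H-L replicate 2. The highest sum was in F-L replicate 1, the library with 14145 CPM of epididymis epithelium markers. The part of that tissue in the neutrophil sums and in Ltf was not tested.

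Homeostatic ligands were more mixed, with a median fold change of 0.94 in F-H over F-L among the 8 of 10 that were tested. Cxcl12, a stromal ligand of Cxcr4, was at 11.8 and 9.51 adjusted RPKM in F-L, at 20.1 and 26.0 in F-H, and at 20.2 and 19.0 in F-H-L. Every F-H and F-H-L library exceeded both F-L libraries, by 1.11 ± 0.28 in F-H (edgeR adjusted p = 0.0880) and 0.88 ± 0.28 in F-H-L (edgeR adjusted p = 0.274). Both differences became negative after scaling to adipocyte markers, at -1.55 and -2.56. That scaling lowered most genes, with a median over all genes of -2.60 in F-H against F-L. Cxcl13, which guides B cells through Cxcr5, was at 1.71 and 1.83 in F-L, at 5.95 and 7.80 in F-H, and at 2.53 and 5.56 in F-H-L. The groups did not overlap, and F-H differed from F-L by 1.96 ± 0.64 (edgeR adjusted p = 0.121; -0.54 after the same scaling). Cxcl14, an epithelial and adipose chemokine, was at 3.74 and 0.624 in F-L, at 10.8 and 8.5 in F-H, and at 2.29 and 1.75 in F-H-L. F-H exceeded the other 4 libraries, and F-H differed from F-L by 2.15 ± 0.87 (edgeR adjusted p = 0.174; -0.99 after the same scaling). With F-L replicate 1 left out the Cxcl14 difference was 3.94, and for F-L replicate 2 it was 1.45.

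Ccl21a and Ccl19 bind Ccr7 and lead lymphocytes and dendritic cells to lymphatic vessels and lymph nodes. Ccl21a was at 17.7 and 61.1 adjusted RPKM in F-L, at 6.40 and 67.5 in F-H, and at 101 and 236 in F-H-L. Both F-H-L libraries were above the other 4, while F-L and F-H overlapped and the F-H libraries differed 10.6-fold. Neither F-H (-0.09 ± 1.14, edgeR adjusted p = 0.967) nor F-H-L (2.09 ± 1.19, edgeR adjusted p = 0.362) passed the test against F-L, and the F-H-L difference was -0.43 after scaling to adipocyte markers. The 6 lymphatic endothelial markers summed to 66.9 and 130.6 CPM in F-L, to 44.0 and 131 in F-H, and to 148.5 and 203.5 in F-H-L. Replicate 2 was the higher library in every group for this list and for Ccl21a. That was also so for the adipocyte, endothelial, progenitor and stromal, mesothelial and mast cell lists. The part of any of these cell types in the Ccl21a values was not tested. Ccl21a has near-identical copies in the mouse genome, among them Ccl21b, so its reads may be shared or lost. Ccl19 was lower, from 0.594 to 6.88, with its highest value in F-H-L replicate 2.

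Ccl27a, a skin ligand of Ccr10, was the opposite case. It was at 5.69 and 29.5 adjusted RPKM in F-L, at 1.57 and 1.60 in F-H, and at 2.60 and 4.20 in F-H-L. Both F-L libraries exceeded the other 4, as they also did for Ccl25 (2.68 and 2.96, against 1.04 to 1.61). F-H differed from F-L by -3.47 ± 0.88 (edgeR adjusted p = 0.0891) and F-H-L by -2.37 ± 0.84 (edgeR adjusted p = 0.274), neither of which passed the test. With F-L replicate 2 left out they were -1.75 and -0.72. The highest Ccl27a value was in F-L replicate 2, the library with 4231 CPM of testis germ cell markers, whose part in it was not tested. Ccl27a shares its last bases with Il11ra1 and has a near-identical copy, Ccl27b, so its values are uncertain. Ccl28, a mucosal ligand of Ccr10, was at 0.0642 and 0.479 in F-L, at 0.0962 and 0.828 in F-H, and at 4.47 and 1.5 in F-H-L, with both F-H-L libraries above the other 4. The Ccr4 ligands Ccl17 and Ccl22, which lie close together on chromosome 8 around Cx3cl1, ran in opposite directions. Ccl17 was at 2.57 and 0.492 in F-L and 0.179 and 0.141 in F-H, whereas Ccl22 was at 0.174 and 0.652 in F-L and 9.32 and 1.65 in F-H. Their differences between F-H and F-L were -3.25 ± 1.0 and 3.72 ± 1.22 (edgeR adjusted p = 0.111 and 0.122).

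**Figure D3:**
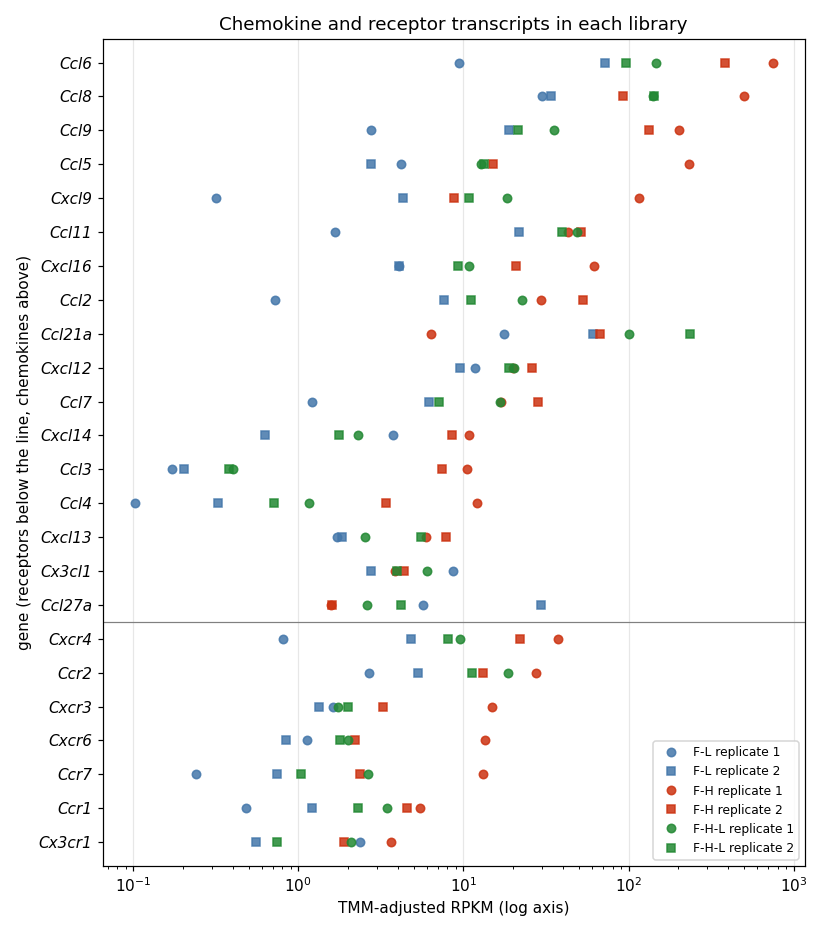
Level of 24 named chemokine and receptor genes in each of the 6 libraries, in adjusted RPKM on a log axis, coloured by group, with circles for replicate 1 and squares for replicate 2. The F-H points of Ccl3 (10.6 and 7.45) stand clear of the other 4, while those of Ccl5 (234 and 15.2) and Cxcl9 (116 and 8.77) lie far apart from each other.

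Receptors mark the cells that respond, and 15 of the 16 tested had a positive fold change in F-H over F-L, against 46.1% of all genes. Their median was 2.58, against -0.12 over all genes, and the 15 include Ccr4 at 0.07 ± 1.25. Ccr2, the receptor of inflammatory monocytes, was at 2.68 and 5.29 adjusted RPKM in F-L, at 27.6 and 13.1 in F-H, and at 18.6 and 11.2 in F-H-L. F-H and F-H-L overlapped for Ccr2, both above F-L, with differences of 2.35 ± 0.56 (edgeR adjusted p = 0.0841) and 1.90 ± 0.55 (edgeR adjusted p = 0.274; -0.95 after scaling to adipocyte markers). Ccr1, a myeloid receptor for Ccl3, Ccl6 and Ccl9, was at 0.485 and 1.21 in F-L, at 5.43 and 4.53 in F-H, and at 3.45 and 2.28 in F-H-L. Its 3 groups did not overlap, and F-H differed from F-L by 2.56 ± 0.65 (edgeR adjusted p = 0.0891). Cx3cr1, the receptor of patrolling monocytes and resident macrophages, was at 2.38 and 0.558 in F-L, at 3.66 and 1.88 in F-H, and at 2.08 and 0.744 in F-H-L. All its groups overlapped, with a difference between F-H and F-L of 0.92 ± 0.92 (edgeR adjusted p = 0.560), or -2.09 after scaling to adipocyte markers. These 3 receptors are known from myeloid cells, and their differences between F-H and F-L ran from 0.92 to 2.56. When single libraries were left out, Ccr2 ran from 1.78 to 3.02, Ccr1 from 2.04 to 3.44 and Cx3cr1 from 0.31 to 2.31.

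Cxcr3, Cxcr6 and Ccr7 were unevenly spread between the F-H libraries, while Cxcr5, the B cell receptor of Cxcl13, had a ratio of 1.36 of replicate 1 to replicate 2. Cxcr3, the receptor of type 1 effector T cells, was at 1.62 and 1.33 adjusted RPKM in F-L, at 14.8 and 3.25 in F-H, and at 1.73 and 2.00 in F-H-L, which put both F-H libraries above the rest. Cxcr6, found on resident T cells and natural killer T cells, was at 1.13 and 0.841 in F-L, at 13.5 and 2.20 in F-H, and at 1.99 and 1.79 in F-H-L. The Cxcr6 span lies inside that of Fyco1 on the opposite strand. Ccr7, which takes dendritic cells and naive T cells to lymph nodes, was at 0.239 and 0.743 in F-L, at 13.2 and 2.38 in F-H, and at 2.63 and 1.04 in F-H-L, with F-H and F-H-L overlapping. Differences between F-H and F-L were 2.61 ± 0.84 for Cxcr3, 2.99 ± 0.95 for Cxcr6 and 3.98 ± 1.17 for Ccr7 (edgeR adjusted p = 0.118, 0.117 and 0.105), and without F-H replicate 1 they were 1.19, 1.21 and 2.34. Cxcr4, the widely expressed receptor of Cxcl12, was at 0.802 and 4.78 in F-L, at 37.2 and 22.1 in F-H, and at 9.57 and 8.08 in F-H-L. Its 3 groups did not overlap, and F-H differed from F-L by 3.40 ± 0.88 (edgeR adjusted p = 0.0906), or by 2.63 and 5.29 when F-L replicate 1 or 2 was left out. Xcr1, a receptor of cross-presenting dendritic cells, peaked at 3.39 in F-H replicate 1.

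The 2 F-H libraries differed from each other along the family. Of 42 members with at least 20 counts in an F-H library and a count in both, 27 were higher in replicate 1 and 15 in replicate 2. More than 4-fold excess in replicate 1 was found for 13, with ratios of 26.0 for Ccr9 (200 against 7 counts), 15.4 for Ccl5, 13.3 for Cxcl9, 7.71 for Cxcl10, 6.14 for Cxcr6 and 4.56 for Cxcr3. Ccl8 was also among the 13, at 5.38. These counts were not set against all genes, and a member could reach 20 counts through 1 library alone, so they describe these members only. Other ligands known from macrophages had ratios of 3.54 for Ccl4, 2.77 for Ccl12, 1.53 for Ccl9 and 1.42 for Ccl3, and Ccl2 was 1.78 times higher in replicate 2. Marker lists differed between the 2 libraries as well, in both directions. The 12 T and NK cell markers summed to 298.6 CPM in replicate 1 and 37.7 in replicate 2, a ratio of 7.92. The 9 B cell and plasma cell markers summed to 9056 and 1033, a ratio of 8.77, whereas the 14 macrophage markers summed to 11352 and 7363, a ratio of 1.54. Dendritic cell and neutrophil markers were also higher in replicate 1, at ratios of 2.81 and 1.49. Lists higher in replicate 2 were those of adipocytes (0.694), progenitors and stroma (0.754), mast cells (0.604) and endothelium (0.577). So were the lymphatic (0.335), mesothelial (0.0626), testis (0.453) and epididymis epithelium (0.00678) lists. What share of the chemokine ratios these cell types and tissues carry was not tested.

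**Figure D4:**
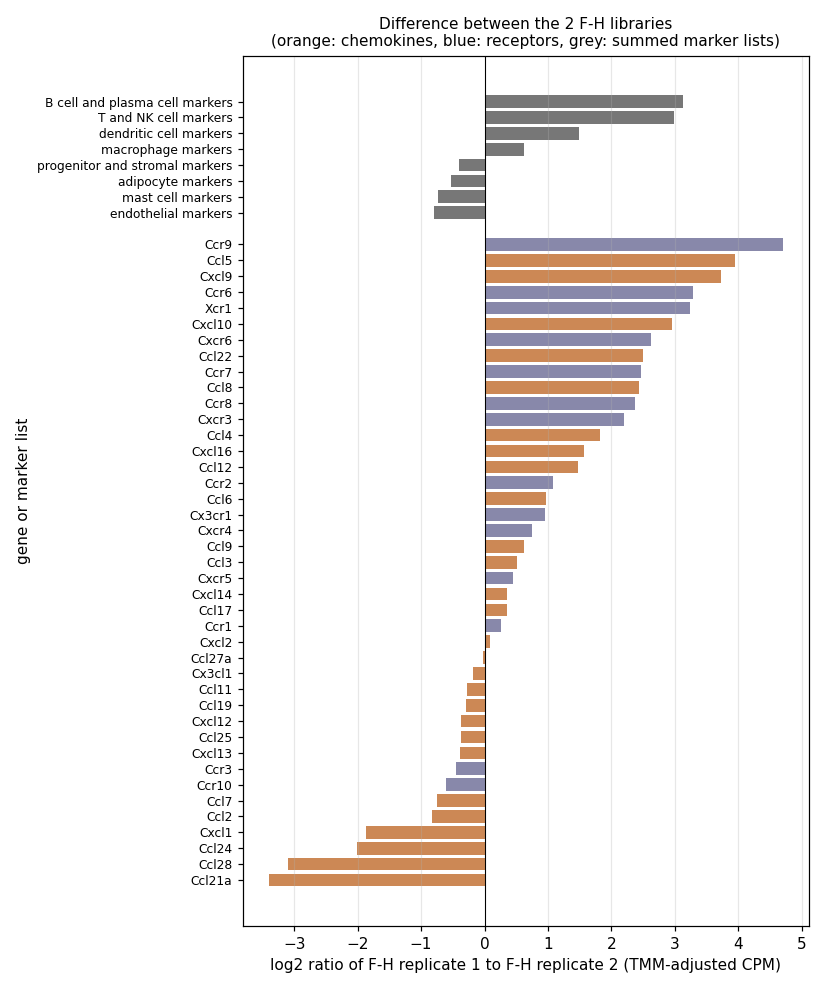
Log2 ratio of F-H replicate 1 to F-H replicate 2 in TMM-adjusted CPM, as bars, for 41 members with at least 20 counts in an F-H library and a count in both, and for 8 summed marker lists in grey. Ccr9, Ccl5 and Cxcl9 have the longest bars towards replicate 1, at ratios of 26.0 (200 against 7 counts), 15.4 and 13.3, while Ccl3 and Ccl9 are at 1.42 and 1.53.

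Diet cycling was compared with each continuous diet, and both comparisons share libraries with the one above. Between F-H-L and F-L, edgeR's quasi-likelihood test called 0 of the 44 members and 0.0% of all genes at an adjusted p under 0.05, DESeq2 called 1 of 52 members (Ccl27a, lower) where it called 5.43% of all genes, and limma on log2(RPKM + 1) called 0. With edgeR and a library left out, the median of the members tested ran from 1.06 to 2.29, and Ccl27a from -3.20 to -0.72. At an unadjusted p under 0.05, edgeR had 6 members, with Ccl19, Ccl8, Ccr1, Ccr2 and Cxcl12 higher and Ccl27a lower, where 17.8% of all genes were under it (8.32% higher, 9.51% lower). Fold changes were positive for 36 of the 44 and negative for 8, against 46.7% and 53.3% of all genes. The median of the 44 was 1.34 against -0.09 over all genes, but it was -1.44 after scaling to adipocyte markers, where the median of all genes was -3.41. Both F-H-L libraries lay above both F-L libraries for 30 members, against 29.8% of all genes, and below for 2, Ccl25 and Ccl27a, against 23.8%. Ccl8 differed by 2.15 ± 0.76 (edgeR adjusted p = 0.274; -1.10 after that scaling) and Ccr1 by 1.76 ± 0.63 (edgeR adjusted p = 0.274; -0.92 after that scaling). Ccl3, Ccl6 and Ccl9 differed by 1.05 ± 0.64, 1.57 ± 0.95 and 1.39 ± 0.88, and were also negative after it, at -1.98, -0.34 and -0.58. With single libraries left out they ran from 0.86 to 1.21, from 0.67 to 3.71 and from 0.51 to 3.39, and Ccr1 from 1.17 to 2.59.

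Between F-H-L and F-H, edgeR's quasi-likelihood test again called 0 of the 44 members and 0.0% of all genes, DESeq2 called 3 of 52 (Ccl3 and Ccl4 among them, all lower in F-H-L) where it called 2.17% of all genes, and limma on log2(RPKM + 1) called 0. With edgeR and F-L replicate 1 left out, Ccl3 was at -4.58, Ccl9 at -2.63, Cxcl14 at -2.32 and Cxcr4 at -1.82. Without F-L replicate 2 they were at -4.57, -2.63, -2.32 and -1.81. At an unadjusted p under 0.05, edgeR had 9 members lower in F-H-L and 0 higher, where 5.68% and 4.92% of all genes were. Among the 9 were Ccl3, Ccl4, Ccl5, Ccl9, Cxcl14, Cxcl16, Cxcl2 and Cxcr3. Fold changes were negative for 34 of the 44 and positive for 10, against 44.8% and 55.1% of all genes, and the median was -1.18 against 0.10 over all genes. Both F-H-L libraries were below both F-H libraries for 19 members, against 25.6% of all genes, and above for 6 (Ccl17, Ccl21a, Ccl27a, Ccl28, Ccr10 and Cxcl5), against 35.6%. The same 19 had both F-H libraries above the other 4 libraries, F-L included, where 15.3% of all genes had. Without F-H replicate 1 the median was -0.21, and Ccl8, Ccr2 and Cxcl9 turned from -1.07, -0.45 and -2.11 to 0.62, 0.20 and 0.75.

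The ligand groups differed in where F-H-L stood. For Ccl3, Ccl4, Ccl5, Ccl6 and Ccl9 the medians were 5.15 in F-H over F-L, 1.57 in F-H-L over F-L and -3.04 in F-H-L against F-H. For the monocyte chemoattractant genes Ccl2, Ccl7, Ccl8 and Ccl12 they were 2.91, 1.85 and -0.99. On chromosome 11 the fold changes of F-H-L against F-H ran from -4.51 to -2.22 in the block that holds Ccl3 and from -1.30 to -0.10 in the block that holds Ccl2. These ranges met when libraries were left out: Ccl5 was at -0.20 and Ccl4 at -1.84 without F-H replicate 1, Ccl8 at -1.82 without F-H replicate 2 and Ccl2 at -1.88 without F-H-L replicate 1. These ranges are descriptions, with no test of the difference between blocks.

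In CPM, without scaling to adipocyte markers, macrophage markers followed the same order of groups as Ccl3, Ccl4, Ccl6 and Ccl9. The 14 markers summed to 334 and 813 CPM in F-L, to 11352 and 7363 in F-H, and to 1547 and 1190 in F-H-L, and in F-H over F-L all 14 had a positive fold change and 5 (Cd14, Cd68, Itgax, Trem2 and Tyrobp) passed the edgeR test. This order was not particular to macrophages. Progenitor and stromal sums had it too, without overlap: at most 1169 CPM for F-L, 1995 to 2057 for F-H-L, at least 2530 for F-H. Mast cell sums also peaked with F-H, at 245 to 405 CPM, but their F-L and F-H-L sums overlapped. The part of any of these cell types in the chemokine differences was not tested. Outside the naming rule, 20 further genes of chemokine biology were listed, including atypical receptors, Gi signalling genes and other leukocyte attractants. Rac2 and Rgs1 were the 2 of 20 that passed the test in F-H over F-L, both higher, and 0 passed in either other comparison with edgeR. These passes and those of the 5 macrophage markers were not kept in all fits. In F-H against F-L, 0 genes passed with median-ratio size factors, with the 2 groups alone or with a replicate block. Of the 20, 18 were positive in F-H over F-L, with a median of 1.61. Over all genes 0.615% were called higher and 46.1% were positive, with a median of -0.12. Rgs1, a GTPase-activating protein that dampens chemokine receptor signals, was at 0.186 and 0.606 adjusted RPKM in F-L, at 73.9 and 51.1 in F-H, and at 2.87 and 1.55 in F-H-L. It rose by 7.28 ± 0.79 in F-H over F-L (edgeR adjusted p = 0.0447). Rac2, a haematopoietic small GTPase of cell migration, was at 2.20 and 3.10 in F-L, at 64.5 and 26.3 in F-H, and at 9.26 and 7.04 in F-H-L, and rose by 4.10 ± 0.54 (edgeR adjusted p = 0.0486). The most abundant of the 20 were Cd74, Rarres2 and Gnai2. Cd74, the invariant chain and a receptor for Mif, was at 200 and 239 in F-L, at 5533 and 949 in F-H, and at 717 and 640 in F-H-L. Rarres2, which encodes the adipokine chemerin, ran from 48.5 to 393, and Gnai2, a G protein subunit that couples to chemokine receptors, from 100 to 284, and none of these 3 passed the test.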

How the data were processed

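The authors deposited raw read counts, RPKM and gene length (unit: other, in bases) for each gene in each library, per the file headers. The submitters' processing notes list bcl2fastq, HISAT2 2.1.0, HTSeq and mm10; neither strand setting nor annotation release is given by these sources. Of the gene symbols, 27 had become dates. Counts were fitted in R 4.3.3 with edgeR 4.0.16 (filterByExpr, 22289 genes; TMM factors 0.902 to 1.16; quasi-likelihood, 1 term per group, 3 residual degrees of freedom), with Benjamini-Hochberg adjustment over all genes and two-sided tests. Adjusted RPKM is TMM-adjusted CPM per kilobase. limma 3.58.1 and DESeq2 1.42.0 were alternatives; tables and figures were made with matplotlib 3.10.9, numpy 2.4.6 and pandas 2.3.3 in Python 3.11.15. The edgeR step was tested on simulated data. Depth limits cover counting error only.

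The members and gene lists were chosen with earlier results of these data known. Named members were those past the test, the 12 of highest mean RPKM, the 6 of widest range and 19 always named, 25 in all, of which 1 is not reported here but stays in totals and counts; others are given by role, and where printed singly they were chosen after their values were seen. Of the 20 further genes, those past the test and the 3 of highest mean RPKM were named. Alternatives were median-ratio size factors, no filter, DESeq2, limma on log2(RPKM + 1) or log2(RPKM + 0.1), scaling to adipocyte markers, the 2 groups alone, a replicate block and each library left out; a crossed pairing and sums per CPM of adipocyte markers were added after seeing the data.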

Additional observations from a re-analysis of the deposited data

How the results depend on the processing

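The number of members called depended on the fit. In F-H against F-L, where edgeR called 1 of 44 (2.27%, all genes 0.866%), it was 0 with median-ratio size factors and 0 with the 2 groups alone. It was 25 of 52 (48.1%) without a filter and with DESeq2, against 14.1% and 14.3% of all genes. With limma on log2(RPKM + 0.1) it was 3 of 44 (6.82%, all genes 4.67%), Ccl3 and Cxcl16 among them. After scaling to adipocyte markers it was 4 of 44 (1 higher, 3 lower), or 9.09%, against 19.4% of all genes. In F-H-L against F-L, from 0, it was 14 without a filter, 1 with DESeq2, 6 after adipocyte scaling (all lower) and 0 to 7 (1 and 7 with the first and second F-L library left out). In F-H-L against F-H, from 0, it was 11 without a filter, 3 with DESeq2, 2 with the groups alone and 0 to 4 (4 and 3 with the first and second F-L library left out). Over all genes, in F-H against F-L, the 193 calls became 0 with median-ratio size factors, 0 with the groups alone, 6025 without a filter and 6073 with DESeq2. They were 411 and 1040 with limma (pseudocounts of 1 and 0.1) and 4333 after adipocyte scaling. In F-H-L against F-L they were 3910 without a filter, 2313 with DESeq2 and 6829 after adipocyte scaling. In F-H-L against F-H they were 1759 without a filter, 925 with DESeq2 and 289 with the groups alone. The cause was not tested.

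The members' median in F-H against F-L (2.48) was 1.37 with limma and a pseudocount of 1, 0.60 after adipocyte scaling (all genes -2.60) and 1.70 to 3.42 with a library left out. In F-H-L against F-L (1.34) it was 0.59, -1.44 and 1.06 to 2.29, and in F-H-L against F-H (-1.18) it was -0.65, -2.02 (all genes -0.69) and -1.88 to -0.21. A larger pseudocount shrinks low genes by construction.

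Adipocyte scaling set the library size of F-L replicate 1 to 5334232, against 47620714 to 93728190 in the other libraries. It moved the median of all genes to -2.60 in F-H against F-L, so a reversed sign is not by itself a fall relative to other genes. It reversed 4 named genes in F-H against F-L: Cx3cr1 (-2.09), Cxcl12 (-1.55), Cxcl13 (-0.54) and Cxcl14 (-0.99). It reversed 17 in F-H-L against F-L: Ccl21a (-0.43), Ccl3 (-1.98), Ccl4 (-0.26), Ccl5 (-1.62), Ccl6 (-0.34), Ccl7 (-0.45), Ccl8 (-1.10), Ccl9 (-0.58), Ccr1 (-0.92), Ccr2 (-0.95), Ccr7 (-0.58), Cxcl12 (-2.56), Cxcl13 (-2.12), Cxcl16 (-2.02), Cxcr3 (-3.09), Cxcr4 (-0.42) and Cxcr6 (-2.52). In F-H-L against F-H it reversed Cx3cl1 (-0.49). In F-H-L against F-L, Cx3cr1 was 0.0051 without a filter and Cxcl14 was 0.10 with limma and a pseudocount of 0.1. With libraries left out, the sign changed for Ccl21a (-2.54 to 1.14) and Cx3cl1 (-0.99 to 0.56) in F-H against F-L, for Cx3cl1 (-0.77 to 0.78), Cx3cr1 (-0.93 to 1.27) and Cxcl14 (-0.86 to 1.62) in F-H-L against F-L, and for Ccl11 (-0.24 to 0.048), Ccl8 (-1.82 to 0.62), Ccr2 (-0.88 to 0.20), Cx3cl1 (-0.031 to 0.57) and Cxcl9 (-2.99 to 0.75) in F-H-L against F-H.

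Deviations of same-numbered libraries correlated at 0.0244, -0.138 and -0.0189 between groups. A correlation over all genes cannot show whether same-numbered libraries were handled together, so pairing by replicate number was not settled. With the replicate block, 0 members and 0 genes were called in F-H against F-L, and in F-H-L against F-L Cx3cr1 was 0.081 and Cxcl14 0.24. With the crossed pairing of F-L and F-H-L, 0 members and 0 genes were called and Cxcl14 was 0.13.

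With 2 libraries a group, members of low count were imprecise at this depth: the SE of the F-H against F-L fold change was 1.95 for Cxcr2 and 1.27 for Ccr6, and Ccl3 rests on 6 to 14 counts outside F-H.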
